A study of Mus musculus with 13 samples.

Results

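E0771 mammary tumours, grown from a transplantable mouse breast cancer line, were compared between hosts labelled KO and hosts labelled WT. The members are the 6 tumour libraries of a series of 13, chosen by their titles, with 3 tumours from KO hosts (KO1, KO2 and KO3) and 3 from WT hosts (WT1, WT2 and WT3). Hosts were C57BL/6 mice, and the series title gives the KO as a loss of PD-L1 in fat only, so the transplanted tumour cells were not the cells targeted. The labels give the tumours as transplanted and, for the hosts of tumours, no Cre driver, diet, age, sex or time of harvest. The remaining 7 libraries came from visceral fat of KO and WT mice after high-fat feeding. RNA from each whole tumour was sequenced as stranded mRNA libraries, and the table held reads per gene for 22609 genes, with 22834259 to 34706555 gene reads in a library. The labels do not say that each tumour came from its own animal, so p-values measure only the spread between these libraries.

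Cd274 encodes PD-L1, a membrane protein whose binding to PD-1 holds T cell responses back. Activated T cells and NK cells secrete interferon gamma, which acts through its receptor and the kinases JAK1 and JAK2 to induce large GTPases, the chemokines CXCL9, CXCL10 and CXCL11 and antigen presentation. These chemokines recruit further T cells through the receptor CXCR3. Mast cells are tissue-resident cells loaded with granules of proteases and histamine, they depend on stem cell factor and its receptor KIT, and they respond to interleukin-33 through the receptor ST2.

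Across the whole transcriptome, tumours of KO hosts had higher average levels of interferon gamma target GTPases, the chemokine gene Cxcl9 and mast cell proteases. Cytotoxic T cell genes were also higher on average, most of all in KO2. Lists with lower averages included immediate early, stress response, type I interferon-stimulated, ribosomal protein, B cell and skeletal muscle genes. Several of these list differences depended on single tumours. No single gene passed the main test. Of 13109 genes with enough reads, edgeR's quasi-likelihood test called 0 higher and 0 lower in KO hosts at a Benjamini-Hochberg adjusted p under 0.05 (0% in either direction), and the smallest adjusted p was 0.204. At an unadjusted p under 0.05 it had 497 genes higher (3.79%) and 408 lower (3.11%), and limma-voom also called 0 and 0 after adjustment, with 464 and 358 unadjusted. DESeq2 called 47 genes higher and 12 lower of the 12427 it could adjust (0.378% and 0.0966%). These calls depended on single tumours: DESeq2 called 13 higher without KO2, 6 without WT1, 7 without WT2, 74 without KO1 and 175 without WT3, and 54 lower without KO1, 6 without KO3, 1 without WT1, 0 without WT2 and 159 without WT3. In simulated counts with known changes, 12.15% of DESeq2 calls were false, against 3.646% for edgeR. All 3 KO values lay above all 3 WT values for 744 genes (5.68%) and below them for 646 (4.93%). The median log2 fold change of all tested genes, KO minus WT, was 0.00, and 50.9% were above 0. Counts of list members below, at an unadjusted p under 0.05, called by DESeq2 or without overlap, are to be read against the shares of all genes given here. The lists were chosen with earlier results of these data known, so these comparisons are descriptive and do not test a list. In what follows levels are normalised reads, raw counts rescaled to the mean effective library size, and adjusted p-values without another name come from edgeR.

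Cd274, the gene targeted in the hosts' fat (chromosome 19, 29367455 to 29388095, GRCm38), was read first. It stood at 2414, 2147 and 1568 normalised reads in KO1, KO2 and KO3 and at 1391, 1688 and 1672 in WT1, WT2 and WT3. The groups overlapped, with KO3 inside the WT range, and the log2 fold change was 0.37 (SE 0.16) with an adjusted p of 0.717. The tumour cells carry their own Cd274, so these values do not check the host label. In the visceral fat of the series, where the label places the loss, the deposited values were 548, 521, 564 and 543 in the 4 KO libraries and 504, 739 and 528 in the 3 WT libraries, so the groups overlapped in whole fat.

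Single tumours stood apart from the rest of their group. On the first principal component of log2 values, which held 32.8% of the variance, KO2 scored 42.8 and the other 5 tumours -22.6 to 13.1. On the second, with 27.25%, WT1 and WT2 scored 30.3 and 21.6 and WT3 scored -20.6, beside KO1 at -23.6. The reads outside any annotated gene made up 17.2% to 19.9% of uniquely placed reads in KO tumours and 20.4% to 22.7% in WT tumours, so this measure separated the groups. A list score below is a tumour's log2 difference from the average WT tumour, averaged over the tested genes of a list. Genes of tissues that may surround a tumour varied widely between single tumours. Skeletal muscle scores were KO -1.05, -0.51, -1.45 and WT -0.52, -0.17, 0.70, nerve scores were KO 0.02, -0.71, -1.23 and WT -0.79, -0.29, 1.08, and WT3 was highest in both. Of 14 tested muscle genes 6 were lower in KO hosts at p under 0.05 before adjustment, and 1 without KO3 or without WT3. Keratinocyte scores were KO -1.03, 1.18, -1.64 and WT -0.38, -0.06, 0.44 and neutrophil scores KO -1.15, 1.41, -1.15 and WT 0.26, 0.13, -0.38, with KO2 highest in both. S100a8, an alarmin gene abundant in neutrophils, stood at 903 normalised reads in KO2 and at 25.3 to 192 in the other 5. For Krt5, the basal keratin of skin, KO2 had 94.3 and the others 5.06 to 23.9. Adipocyte genes had few reads, and 8 of 15 of them had too few to test, while the 7 tested had a median log2 fold change of -0.05. The part of these tissues, and of reads outside genes, in the results below was not tested.

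**Figure D1:**
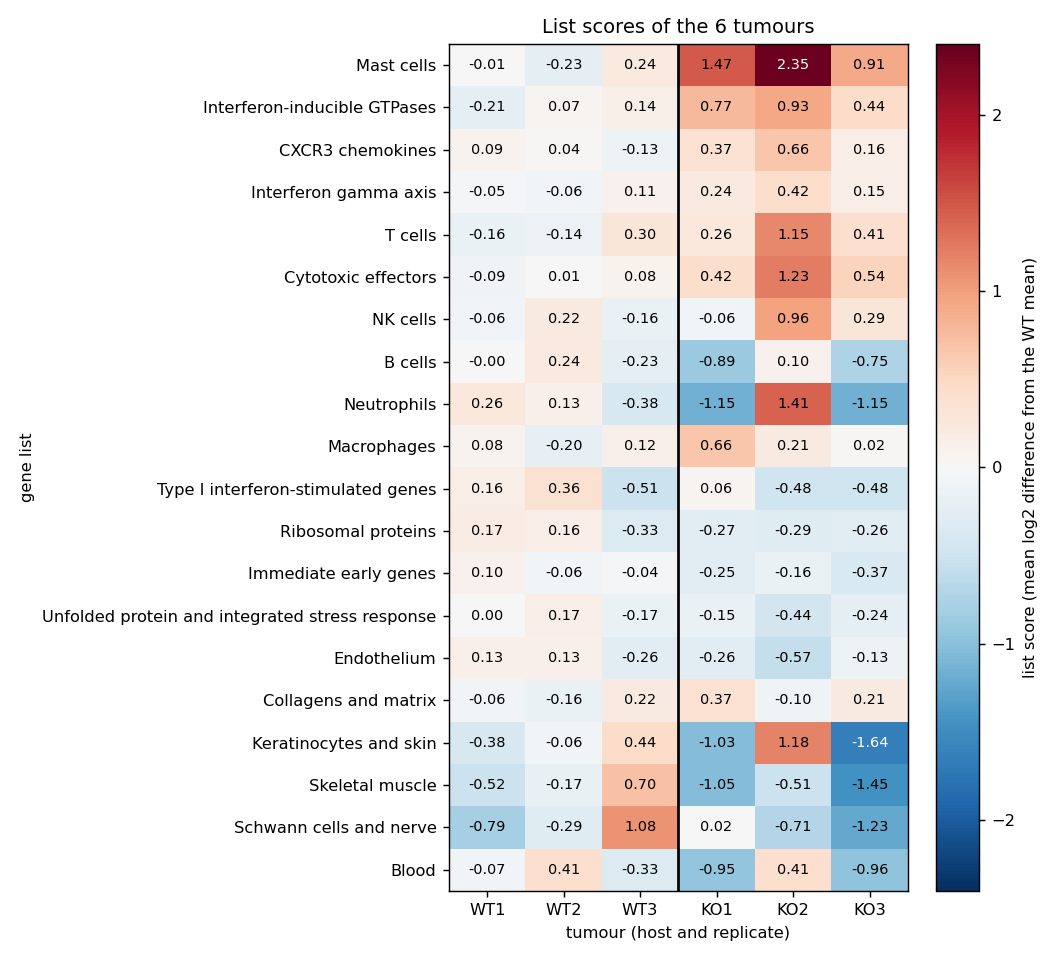
Scores of 20 gene lists (vertical axis) in each of the 6 tumours (horizontal axis), where colour and printed number give that list's score, on a log2 scale with the WT average at 0. KO2 has the highest score for mast cells (2.35), T cells (1.15), neutrophils (1.41) and keratinocytes (1.18), while WT3 shares low scores for type I interferon-stimulated and ribosomal protein genes with KO2 and KO3.

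The labelled tumour type was compared with its genes. Krt8, the keratin of simple epithelia, was at 8735 to 9492 normalised reads in KO and 8441 to 10313 in WT tumours, while Krt18, its usual partner, was at 40.5 to 95.6 and 59.1 to 107 and the epithelial adhesion gene Epcam at 22.5 to 81.5 and 52.5 to 68. Epcam was thus present at few reads in every tumour. Of 12 tested tumour epithelium genes 2 were above 0, with a median of -0.21 and 0 at an unadjusted p under 0.05. The median was -0.51 without KO2, -0.14 without KO1, -0.12 without KO3 and -0.03 without WT3. Of 12 milk and mammary gland genes, 9 had too few reads to test.

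Interferon-inducible GTPases averaged higher in KO hosts without exception. These proteins, the guanylate-binding proteins and the immunity-related GTPases, attack the vacuoles of intracellular microbes and are classical targets of interferon gamma. Of 19 listed, 17 were tested, and all 17 had a log2 fold change above 0, from 0.22 to 2.02, with a median of 0.63 against 0.00 for all genes. At an unadjusted p under 0.05, 13 were higher and 0 lower, against 3.79% and 3.11% of all genes, and in the same number all KO tumours lay above all WT tumours, against 5.68%. The count of 13 was the same under other scalings, limma-voom and the replicate block, and it was 13 or 14 whichever tumour was left out. None passed edgeR's adjusted threshold, and DESeq2 called 4 of them higher, Iigp1, Gbp2, Gbp4 and Igtp. Of these, Iigp1 and Gbp2 rank among the 10 genes of smallest p in the whole table.

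Iigp1, which encodes the immunity-related GTPase IRGA6, stood at 6097, 7210.4 and 5748 normalised reads in KO1, KO2 and KO3 and at 2261, 3010.3 and 3665 in WT1, WT2 and WT3. The lowest KO tumour lay above the highest WT tumour, WT3, and the means of 6352 ± 764 and 2978 ± 703 (SD, n = 3 each) differed 2.13-fold (log2 fold change 1.09, SE 0.17, adjusted p = 0.204). An exact permutation test over the 20 relabellings of the 6 tumours gave p = 0.1, the smallest it can give, for Iigp1, Cxcl9, Cpa3 and Cd8a (0.125 adjusted over 5 genes), and p = 0.3 for Cd274. Every gene whose groups do not overlap gets this smallest p, as 5.68% (KO above WT) and 4.93% (KO below WT) of all tested genes do. The permutation test thus says no more than that the groups do not overlap. Gbp2, a guanylate-binding protein gene (chromosome 3, 142620602 to 142638008), had 13916, 15631 and 11058 in KO and 7467, 7542 and 8685 in WT tumours. Its groups were also apart, with KO3 the lowest of the KO tumours, at a 1.71-fold difference (log2 fold change 0.78, SE 0.14, adjusted p = 0.204). Gbp4 had 2644, 3179 and 2038 against 1172, 1260.3 and 1634, 1.93-fold, and Igtp, which encodes IRGM3 (chromosome 11, 58199556 to 58207591), had 8647, 9787 and 7966 against 6119.9, 6135 and 6005, 1.45-fold. The WT values of Igtp spanned a narrow range, below every KO value. The largest log2 fold change of the list was that of Gbp1, 2.02 (SE 0.43), with 696, 891 and 385 in KO and 79.8, 109.8 and 296 in WT tumours, where WT3 was well above WT1 and WT2.

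Among the other members, Irgm1 and Irgm2, regulators that keep these GTPases off host membranes, had log2 fold changes of 0.49 (SE 0.12) and 0.55 (SE 0.14). Gbp3, Gbp5, Gbp6, Gbp7, Gbp8 and Tgtp2 ran from 0.46 (Gbp3) to 0.80 (Gbp8). Gbp9, Gbp10, Gbp11 and Ifi47 had log2 fold changes above 0 and overlapping groups, with p from 0.109 to 0.212 before adjustment. Several of these genes are near copies of each other, so reads may be divided between them in a way that depends on the counting, which the labels do not state.

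**Figure D2:**
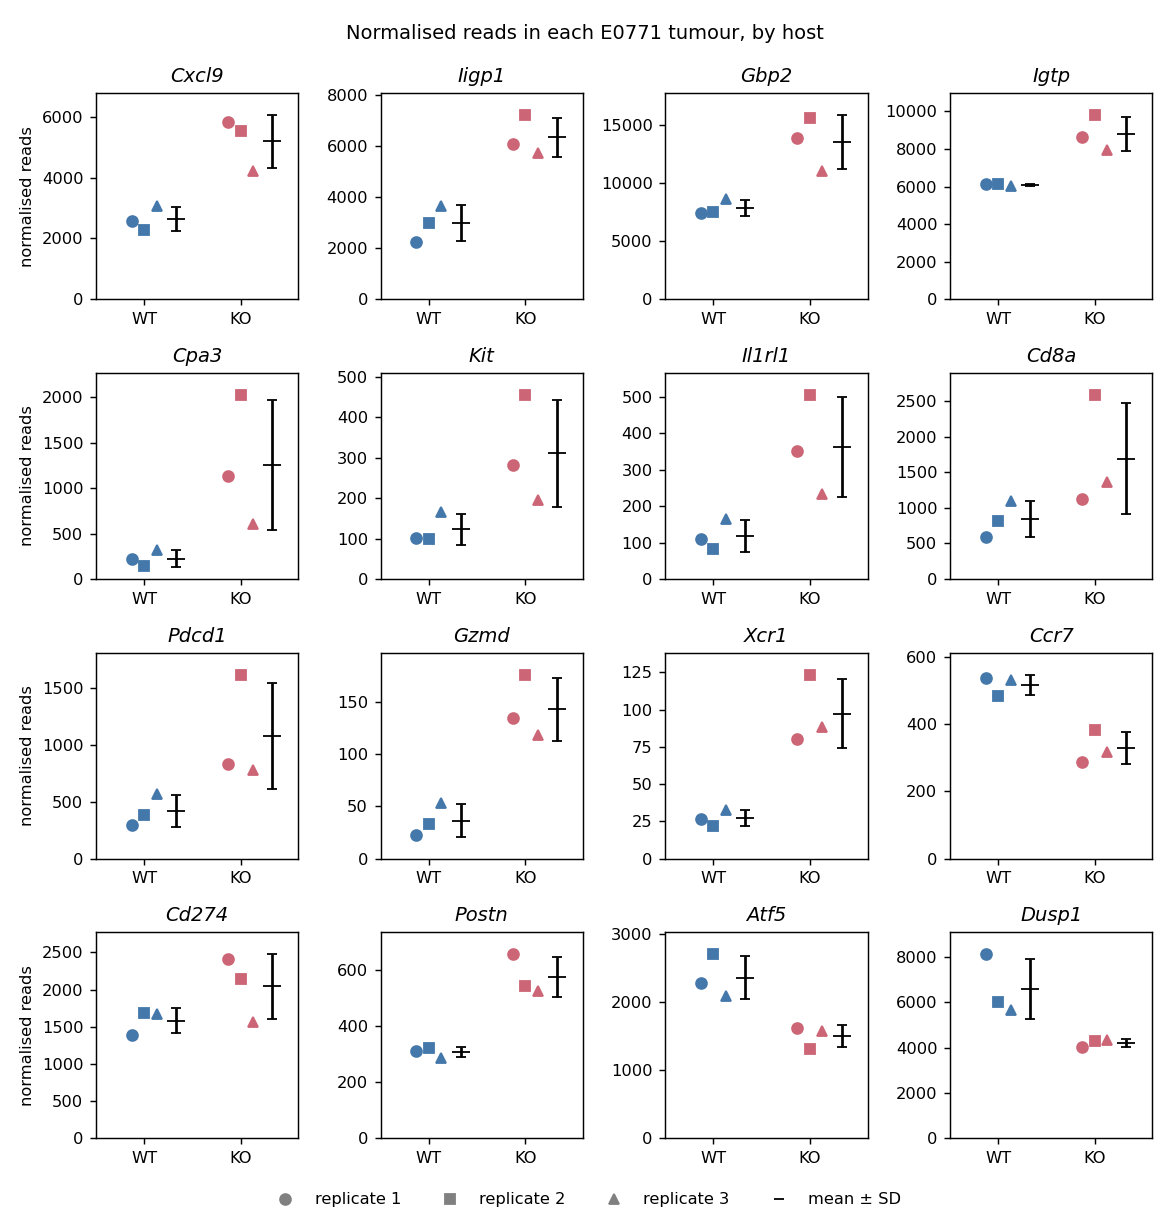
Normalised reads (vertical axes, from 0) of 16 genes in tumours of WT hosts (blue) and KO hosts (red), with 1 symbol per tumour and the mean ± SD beside each group. In Cxcl9, Iigp1, Gbp2, Igtp and Postn every KO tumour lies above every WT tumour by a clear gap, in Cpa3, Cd8a and Pdcd1 KO2 lies far above KO1 and KO3, and in Ccr7, Atf5 and Dusp1 every KO tumour lies below every WT tumour.

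The stretches upstream of these genes were read from RefSeq for build GRCm38.p6, 250 bases before the start of transcription, to show which letters the members share. The motifs searched on both strands were the gamma-activated site, TTCNNNGAA, and a short form of the interferon-stimulated response element, GAAA repeated with any 2 bases between the copies. Of the 17 tested GTPase genes 9 matched the table, with 10 promoters, of which 8 held the response element (80%, against 2.98% of all 32851 promoters of that length) and 5 held TTCNNNGAA (50%, against 7.02%). Among the 29 tested type I interferon-stimulated genes described below, 20 matched with 23 promoters, of which 9 held the response element (39.1%) and 3 TTCNNNGAA (13%). A match gives letters, not binding. Gbp7 and Igtp are shown as GTPase promoters with both motifs, Rsad2 as a type I interferon-stimulated gene, and Cxcl9 as an interferon gamma target without either match in this window. Each is written 5′ to 3′ on the strand of its gene, and capitals mark the matches.
Gbp7 (chr3:142530086-142530335, plus strand): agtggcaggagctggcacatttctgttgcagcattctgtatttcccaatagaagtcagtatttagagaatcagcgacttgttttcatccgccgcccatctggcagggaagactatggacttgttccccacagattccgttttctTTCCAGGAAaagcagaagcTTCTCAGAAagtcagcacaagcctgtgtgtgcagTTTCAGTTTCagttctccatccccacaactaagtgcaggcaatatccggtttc
Igtp (chr11:58199306-58199555, plus strand): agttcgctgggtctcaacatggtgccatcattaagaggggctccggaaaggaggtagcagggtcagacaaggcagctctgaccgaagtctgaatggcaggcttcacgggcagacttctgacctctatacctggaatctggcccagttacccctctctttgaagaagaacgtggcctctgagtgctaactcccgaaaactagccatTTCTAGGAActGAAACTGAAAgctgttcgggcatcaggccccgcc
Rsad2 (chr12:26456453-26456702, minus strand): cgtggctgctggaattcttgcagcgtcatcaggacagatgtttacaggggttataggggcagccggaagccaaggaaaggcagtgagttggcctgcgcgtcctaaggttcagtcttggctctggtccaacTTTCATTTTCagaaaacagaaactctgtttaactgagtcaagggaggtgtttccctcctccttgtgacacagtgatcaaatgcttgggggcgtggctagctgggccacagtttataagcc
Cxcl9 (chr5:92328080-92328329, minus strand): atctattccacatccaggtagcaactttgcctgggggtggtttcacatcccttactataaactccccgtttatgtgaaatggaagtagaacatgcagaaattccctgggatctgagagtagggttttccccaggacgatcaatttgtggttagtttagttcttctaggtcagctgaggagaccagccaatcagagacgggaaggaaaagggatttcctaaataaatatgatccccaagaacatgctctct
In Igtp the site TTCTAGGAA begins 45 bases before the start and GAAACTGAAA 34 bases before it. In Gbp7 the nearest match, TTTCAGTTTC, which is the element on the other strand, begins 53 bases before the start, and in Rsad2 TTTCATTTTC begins 120 bases before it.

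The chemokines and receptors of the CXCR3 route differed among themselves. Cxcl9, which encodes a T cell attractant (chromosome 5, 92321347 to 92328079), had 5813, 5541 and 4208 normalised reads in KO1, KO2 and KO3 and 2565, 2294 and 3052 in WT1, WT2 and WT3. The groups did not overlap, and the means of 5187 ± 859 and 2637 ± 384 (SD, n = 3 each) differed 1.97-fold (log2 fold change 0.98, SE 0.15, adjusted p = 0.204), with a DESeq2 adjusted p of 1.04e-05. Cxcl10, another ligand of CXCR3, had 4247, 4077 and 3037 in KO and 5428, 4851 and 2505 in WT tumours, so WT1 and WT2 were the highest and WT3 the lowest of all 6. Its log2 fold change was -0.17 (SE 0.24), and that of Cxcl11 was -0.39 (SE 0.42). The sign turned without WT1 for Cxcl10 (0.037) and without WT2 for Cxcl11 (0.17). Among receptors, Cxcr6, found on resident and effector T cells, had 901, 1997 and 999 against 564, 547 and 807 without overlap (log2 fold change 1.02, SE 0.28), and Cxcr3 overlapped, with 334, 456 and 269 against 170.4, 190.0 and 298. Cxcl16, the ligand of CXCR6, had a log2 fold change of 0.21 (SE 0.16) and Ccl5 one of 0.10 (SE 0.23). Of the 8 genes listed 6 were above 0 (median 0.37), with 4 higher and 0 lower at p under 0.05 before adjustment, and DESeq2 called Cxcl9 and Cxcr6.

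Within the interferon gamma axis the ligand and the transcription factor gene Irf1 leaned the same way. Ifng itself, named after its values were seen, had 353, 868 and 392 normalised reads in KO and 200.0, 231 and 382 in WT tumours, and the groups overlapped through KO1 and WT3 (log2 fold change 0.98, SE 0.34, adjusted p = 0.646). Irf1, a transcription factor induced by interferon gamma, had 8459, 10542 and 7551 against 5813, 5387 and 6643, without overlap (log2 fold change 0.57, SE 0.14, adjusted p = 0.446), and DESeq2 called it at 0.0488. In the list of 19 tested members 15 were above 0 (median 0.21) and 5 were higher and 0 lower at p under 0.05 before adjustment. That count was 3 without KO2 or without WT2 and 8 without WT3, and the median was 0.12 without KO2, 0.32 without KO3 and 0.41 without WT3.

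Antigen presentation genes differed less. Of 20 MHC class I presentation genes 18 were above 0, but the median was 0.11 and 2 were higher at an unadjusted p under 0.05, Erap1, the peptide-trimming protease, at 0.27 (SE 0.11) and Psmb10, an immunoproteasome subunit, at 0.32 (SE 0.14). Of 12 MHC class II presentation genes 9 were above 0 (median 0.29) and 5 were higher, a count of 0 without KO1, without KO2 or without WT2. Cd74, the invariant chain, had 56664, 58134 and 39227 normalised reads in KO and 39514, 28522 and 44509 in WT tumours, so KO3 lay inside the WT range.

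T cell genes were higher on average in KO hosts, most of all in KO2. The list scores were KO 0.26, 1.15, 0.41 and WT -0.16, -0.14, 0.30, so KO1 lay below WT3. Of 17 tested T cell genes 16 were above 0 (median 0.69). At p under 0.05 before adjustment 13 were higher and 0 lower, against 3.79% and 3.11% of all genes. In 7 the groups did not overlap, against 5.68% of all genes with KO above WT. The count of 13 fell to 5 without KO2, 5 without WT1 and 6 without WT2, and the median to 0.31 without KO2. In RNA from whole tumours, more cells of a type and more RNA per cell cannot be told apart. Cd8a, the co-receptor of cytotoxic T cells (chromosome 6, 71373427 to 71379173), had 1123, 2587 and 1364 normalised reads in KO1, KO2 and KO3 and 595, 819 and 1103 in WT1, WT2 and WT3. KO1 and WT3 almost met, KO2 was far above all others, and the means of 1691 ± 785 and 839 ± 254 (SD, n = 3 each) differed 2.01-fold (log2 fold change 1.01, SE 0.29, adjusted p = 0.541). Its partner Cd8b1 had 648, 1467 and 705 against 275, 365 and 664, overlapping between KO1 and WT3. Cd4, the co-receptor of helper T cells, had 375, 578 and 537 against 501, 535 and 601 (log2 fold change -0.14, SE 0.18), with the groups intermixed. Cd3e and Cd3g, chains of the T cell receptor complex, had log2 fold changes of 0.85 (SE 0.30) and 0.78 (SE 0.26), and Zap70, the kinase that the receptor recruits, one of 0.72 (SE 0.19) with no overlap. Cd28 and Icos, co-stimulatory receptors, were at 0.91 (SE 0.28) and 0.70 (SE 0.30), and Tbx21, the T-bet transcription factor of type 1 T cells, at 0.67 (SE 0.24). Regulatory T cell genes were above 0 in 9 of 11 cases (median 0.31), with 0 at an unadjusted p under 0.05, and the median was 0.074 without KO2, 0.18 without WT1, 0.20 without WT2 and 0.49 without WT3, where 3 were higher.

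Cd96, an adhesion receptor of T and NK cells, had the smallest p of the lymphocyte genes apart from Gzmd, with 272, 398 and 291 normalised reads in KO and 111, 143 and 159.9 in WT tumours. All KO values lay above all WT values (log2 fold change 1.21, SE 0.22, adjusted p = 0.245), and DESeq2 called it at 0.00142. Pdcd1, which encodes the PD-L1 receptor PD-1, had 833, 1617 and 782 against 299, 387 and 568. KO2 was far above KO1 and KO3, and the groups did not overlap (2.57-fold, log2 fold change 1.36, SE 0.29, adjusted p = 0.354, DESeq2 adjusted p = 0.000669). Havcr2, which encodes TIM-3, had 911, 1349 and 1078 against 712, 697 and 807, and Entpd1, which encodes the ectonucleotidase CD39, 2037, 2054 and 1509 against 1278, 1278 and 1361, neither with overlap. Ctla4 overlapped, with a log2 fold change of 0.38 (SE 0.25). Of 18 inhibitory receptors and ligands 14 were above 0 (median 0.29). At p under 0.05 before adjustment 8 were higher and 0 lower, against 3.79% and 3.11% of all genes. The higher count was 4 without KO2 or without WT1, and the median was 0.16 without KO2.

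Cytotoxic granule genes also averaged higher in KO hosts, unevenly between members. Gzmd, a granzyme gene of a cluster on chromosome 14, had 134, 176 and 118 normalised reads in KO1, KO2 and KO3 and 22.7, 33.4 and 53 in WT1, WT2 and WT3. Its lowest KO value was above its highest WT value, WT3, and the difference was 3.9-fold (log2 fold change 1.96, SE 0.35, adjusted p = 0.204, DESeq2 adjusted p = 0.000421). Its neighbours Gzme and Gzmf, close copies whose reads may be shared with it, had log2 fold changes of 1.61 (SE 0.47) and 1.40 (SE 0.37). Prf1, which encodes the pore-forming perforin, had 1271, 1921 and 1459 against 684, 771.4 and 1208, with KO1 just above WT3. Gzmb, the main granzyme of activated killer cells, had 2997, 3481 and 2622 against 2519.7, 2682 and 2339.9, a log2 fold change of 0.27 (SE 0.13), while Gzma and Gzmc were at -0.02 (SE 0.28) and -0.08 (SE 0.25). Of 13 tested effector genes 11 were above 0 (median 0.70), with 7 higher and 0 lower at p under 0.05 before adjustment, a count of 4 without KO2 or without WT2, and the median without KO2 was 0.35. NK cell genes were above 0 in 12 of 14 cases (median 0.41), and 5 were higher at an unadjusted p under 0.05, but 0 without KO2, 1 without WT1, 3 without WT2 and 2 without WT3, and the median was 0.16 without KO2 and 0.64 without KO1. Scores of the NK cell list overlapped, with KO1 at -0.06 below WT2 at 0.22. Ncr1, the receptor that defines NK cells, had 146, 189.8 and 175 against 168, 164 and 90.2 with overlapping groups.

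B cell genes averaged lower in KO hosts. Each of 10 tested B cell genes was below 0 (median -0.42), 1 at an unadjusted p under 0.05. The median was -0.95 without KO2 with 4 members lower, but -0.23 without KO1, -0.22 without WT2 and -0.13 without KO3, with 2, 2 and 3 members above 0. The list scores overlapped, with KO -0.89, 0.10, -0.75 and WT -0.003, 0.24, -0.23. Cd79a, the defining marker of this list, had few reads and overlapping groups, with 47.2, 79.0 and 39.3 normalised reads in KO and 92.6, 92.6 and 67.9 in WT tumours.

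Mast cell genes had the largest median difference of the 59 lists, which were chosen with earlier results of these data known. Of 20 listed genes 18 were tested and 16 were above 0, with a median log2 fold change of 2.09, and 13 were higher and 0 lower at p under 0.05 before adjustment. Of all genes 3.79% were higher and 3.11% lower at that p. In 9 members the groups did not overlap, against 5.68% of all genes with KO above WT. DESeq2 called 10 higher, against 0.378% of the genes it could adjust, and none of the 10 passed edgeR. The count of 13 was 11 to 14 in the fits that left out 1 tumour, and the median was 1.40 without KO2.

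Cpa3, which encodes the mast cell carboxypeptidase (chromosome 3, 20215620 to 20242181), had 1137, 2026 and 609.6 normalised reads in KO1, KO2 and KO3 and 219, 140.3 and 317 in WT1, WT2 and WT3. KO2 was the highest and KO3 the lowest of the KO tumours, WT3 the highest of the WT tumours, and the groups did not overlap. The means were 1258 ± 716 and 225 ± 88.5 (SD, n = 3 each), 5.57-fold apart (log2 fold change 2.48, SE 0.39, adjusted p = 0.204, DESeq2 adjusted p = 0.00988). The chymase gene Cma1 had 1346, 2250.1 and 698 against 324, 230.1 and 456, 4.25-fold, and the chymase-like Mcpt4 1608, 3146 and 914 against 414, 268 and 647, 4.26-fold. The tryptase Tpsb2 had 1718, 2863 and 763 against 252, 179 and 453, 6.04-fold, and its close copy Tpsab1 132, 223 and 85.3 against 32.5, 11.5 and 24.2, 6.42-fold. All 5 protease genes shared the order KO2, KO1, KO3 in KO hosts, and in none did the groups overlap.

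Receptors of the same cells also averaged higher. Kit, the stem cell factor receptor, had 281, 455 and 196 normalised reads in KO and 102, 99.3 and 166 in WT tumours, with KO3 not far above WT3 (2.52-fold, log2 fold change 1.34, SE 0.32, adjusted p = 0.439). Il1rl1, which encodes the interleukin-33 receptor ST2 (chromosome 1, 40429570 to 40465415), had 351, 505 and 232 against 108, 81.2 and 165, without overlap (3.06-fold, log2 fold change 1.61, SE 0.32, adjusted p = 0.263, DESeq2 adjusted p = 0.000502). Fcer1a, the binding chain of the IgE receptor, had 174, 192 and 58.4 against 62.1, 45.8 and 35.3, and KO3 lay below WT1. Mrgprb1 and Mrgprb2, members of the Mas-related receptor family, had 137, 214 and 71.8 against 20.7, 20 and 41.8 and 29.5, 87.9 and 15.7 against 0, 6.68 and 4.65, again in the order KO2, KO1, KO3. Mcpt1 and Mcpt2, proteases of mucosal mast cells, departed from that order, with 11, 162 and 49.4 and 59.9, 217 and 66.2 in KO1, KO2 and KO3, where KO3 was not below KO1. Their WT values were 18.7, 10.5 and 3.72 and 21.7, 33.4 and 18.6, so only Mcpt2 was free of overlap. Hdc, the histamine-forming enzyme, had 372, 1099.6 and 222 against 343, 254 and 156, and KO2 was far above the rest while KO3 lay inside the WT range. Srgn, Gata2 and Mitf, 3 genes that mast cells share with other cells, had overlapping groups. Their log2 fold changes were 0.38 (SE 0.28), 0.15 (SE 0.23) and -0.41 (SE 0.25). Mcpt8, a protease of basophils, had 7.86 to 20.4 normalised reads in any tumour (log2 fold change -0.13, SE 0.58), and 4 eosinophil and basophil genes had a median of -0.06.

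The stretch upstream of Cpa3 is shown since its transcript had the third smallest p of the table. The letters AGATAA, which the GATA factors of mast cells recognise, were searched on both strands. They occur in 3 of 19 promoters of the 14 matched mast cell genes (15.8%), those of Cpa3, Fcer1a and Cd200r3, against 9.99% of all promoters of that length, so the list stands close to the background. In Cpa3 the match, in capitals, begins 46 bases before the start.
Cpa3 (chr3:20242182-20242431, minus strand): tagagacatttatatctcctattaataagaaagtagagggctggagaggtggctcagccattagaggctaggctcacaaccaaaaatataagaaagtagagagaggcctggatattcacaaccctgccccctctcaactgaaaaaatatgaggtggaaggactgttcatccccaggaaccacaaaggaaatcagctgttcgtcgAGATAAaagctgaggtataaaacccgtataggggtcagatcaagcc

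The ligands of these receptors had smaller differences. Il33, the interleukin that ST2 binds, had 194, 214 and 157 normalised reads in KO and 192, 191 and 139 in WT tumours, intermixed, with a log2 fold change of 0.11 (SE 0.22). Kitl, which encodes stem cell factor, had raw counts of 1937, 1541 and 1680 in KO1, KO2 and KO3. In WT1, WT2 and WT3 they were 1311, 2026 and 1779, so the groups overlapped. In the interleukin-33 and type 2 cytokine list 8 of 17 genes had too few reads to test, among them Il4, Il5, Il13 and Il9, and the 9 tested had a median of 0.04, with 2 higher and 2 lower at p under 0.05 before adjustment. The higher 2 were Il1rl1 and Il4ra, the interleukin-4 receptor chain, at 0.36 (SE 0.14). The lower 2 were Chi3l3, a chitinase-like gene of alternatively activated macrophages, at -1.24 (SE 0.43), and Crlf2, a receptor chain for the cytokine TSLP, at -0.53 (SE 0.22), both with overlapping groups. Among 9 tested growth factors and receptors of mast cells the median was 0.04, and 2 were higher, Kit and Csf2rb2, a shared chain of the interleukin-3 receptor family, at 0.58 (SE 0.18).

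**Figure D3:**
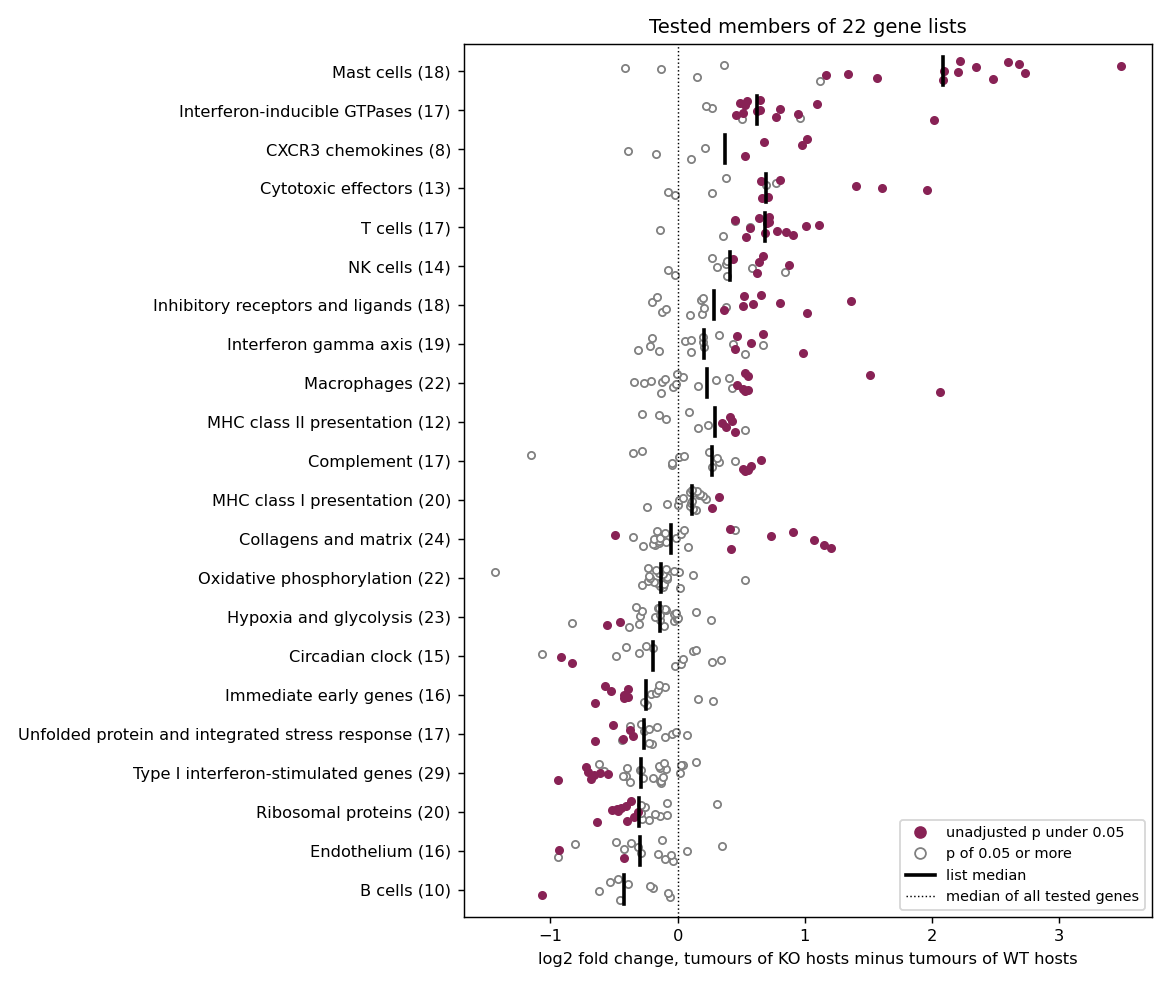
Log2 fold change (horizontal axis, KO minus WT) of each tested member of 22 gene lists (vertical axis, number tested in parentheses), with filled points for an unadjusted p under 0.05 and a bar at each list's median. The mast cell list lies farthest right (median 2.09) and all 17 interferon-inducible GTPases lie above 0, while the B cell list lies wholly below 0.

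Of 22 macrophage genes 13 were above 0 (median 0.23) and 8 were higher and 0 lower at p under 0.05 before adjustment, a count of 4 without KO1 or without WT2. Without KO1 the median was 0.017, 11 members were above and 11 below 0, and 3 were lower at p under 0.05 before adjustment, while the median was 0.11 without WT2 and 0.37 without KO3. Emr1, the older symbol of Adgre1 for the F4/80 antigen, had 6279.6, 4156 and 4225 normalised reads in KO and 3144, 3179 and 4299 in WT tumours, and KO2 and KO3 lay inside the WT range. Arg1, the arginase of alternatively activated macrophages, had 2323, 1339 and 715 against 441, 43.9 and 561, with WT2 far below the rest, a 4.19-fold difference (log2 fold change 2.07, SE 0.64, adjusted p = 0.559). Nos2, the inducible nitric oxide synthase of classically activated macrophages, had 1383, 1507 and 451 against 271, 390.5 and 512, high in KO1 and KO2 and inside the WT range in KO3. Irg1, the itaconate-forming enzyme now called Acod1, followed the same order with 2375, 2497 and 1090.0 against 1120.0, 944 and 1084. Hmox1, the haem-degrading enzyme, had 9787, 8225 and 5866 against 4432, 4420.4 and 4925 without overlap (log2 fold change 0.79, SE 0.17, adjusted p = 0.349, DESeq2 adjusted p = 0.00386). Without KO3, 9 genes passed edgeR on the higher side, and Nos2, Irg1 and Hmox1 were among them beside 5 mast cell genes and Cxcl9. Complement genes were above 0 in 12 of 17 cases (median 0.27), with C1s, the classical pathway protease, at 0.58 (SE 0.14) and C5ar1, the C5a receptor, at 0.66 (SE 0.18). Of them 5 were higher at an unadjusted p under 0.05, 2 without KO1 or without WT2 and 9 without KO3, and the median was 0.11 without KO1.

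Dendritic cell genes split. Xcr1, the receptor of cross-presenting dendritic cells, had 80.1, 124 and 88.7 normalised reads in KO1, KO2 and KO3 and 26.6, 22 and 32.5 in WT1, WT2 and WT3. The lowest KO value lay well above the highest WT value, and the means differed 3.58-fold (log2 fold change 1.84, SE 0.35, adjusted p = 0.245, DESeq2 adjusted p = 0.00371). Ccr7, which guides mature dendritic cells and naive lymphocytes to lymph nodes, had 288, 381 and 318 against 538, 483 and 529.9, 1.57-fold lower in KO hosts and without overlap (log2 fold change -0.66, SE 0.16, adjusted p = 0.455). Cd209a, a lectin of another dendritic cell subset, had 126, 148 and 173 against 251, 189 and 225, also lower without overlap. Over the 14 members 7 were above 0, with a median of 0.02, 1 higher and 2 lower at p under 0.05 before adjustment.

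Type I interferon-stimulated genes, which interferon alpha and beta induce, lay mostly on the other side of 0 from the GTPases. Of 29 tested, 4 were above 0 (median -0.29), with 0 higher and 7 lower at p under 0.05 before adjustment, and 0 without overlap between groups. Mx1, an antiviral GTPase, had 2248, 1506 and 1533 normalised reads in KO1, KO2 and KO3 and 3274, 3865 and 1499 in WT1, WT2 and WT3. WT1 and WT2 were high, and WT3 lay with the KO tumours. Rsad2, the antiviral enzyme viperin, had 5344, 3338 and 3541 against 7888, 8601 and 3614, with WT3 among the KO values. I830012O16Rik, a further gene of the list, had 336, 293 and 282 against 783, 707 and 258, and WT3 lay below every KO tumour. The scores of the list were KO 0.06, -0.48, -0.48 and WT 0.16, 0.36, -0.51, while those of the GTPases were KO 0.77, 0.93, 0.44 and WT -0.21, 0.07, 0.14. The count of 7 lower members was 16 without WT3 and 18 without KO1, and 1 without KO2, 1 without KO3, 0 without WT1 and 0 without WT2. The median was -0.53 without KO1 and -0.50 without WT3, and -0.19 without KO2, -0.17 without KO3 and -0.11 without WT2.

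Ribosomal protein genes had a similar shape. Of 20 tested, 1 was above 0 (median -0.30) and 10 were lower at an unadjusted p under 0.05, against 3.11% of all genes. In 2 the groups did not overlap, against 4.93% of all genes with KO below WT. The scores were KO -0.27, -0.29, -0.26 and WT 0.17, 0.16, -0.33, so WT3 lay with the KO tumours here too. Rps18 had 4426, 4223 and 4542 normalised reads against 7018, 6962 and 4330.2. The count of 10 was 16 without WT3, 5 without KO2, 3 without KO3, 0 without WT1 and 2 without WT2, and the median was -0.45 without WT3. These genes have many processed copies in the genome, and reads placed at several sites made up 59.1% to 60.6% of all entries in KO and 60.3% to 63.8% in WT tumours, a part in the result that was not tested.

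Immediate early genes, which cells switch on within minutes of a stimulus or of tissue handling, were lower on average in KO hosts. Of 16 tested, 14 were below 0 (median -0.25), 7 were lower and 0 higher at an unadjusted p under 0.05, against 3.11% of all genes lower, and in 7 all KO tumours lay below all WT tumours, against 4.93%. The count was 5 to 8 in the fits that left out 1 tumour, and the median was -0.15 without KO3. Dusp1, a phosphatase of MAP kinases, had 4014, 4279 and 4321 normalised reads in KO1, KO2 and KO3 and 8122, 6014 and 5657 in WT1, WT2 and WT3. The KO values were nearly equal and all below WT3, the lowest WT tumour (1.57-fold lower, log2 fold change -0.65, SE 0.14, adjusted p = 0.354, DESeq2 adjusted p = 0.00988). Junb, a subunit of the AP-1 factor, had 6764, 6153 and 6536 against 11870.5, 8399 and 7743, and the orphan nuclear receptor gene Nr4a1 1399, 1738 and 1189 against 1793, 2507 and 2107, both without overlap.

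Genes of the unfolded protein and integrated stress response leaned the same way. Of 17 tested, 16 were below 0 (median -0.26), and 5 were lower at an unadjusted p under 0.05, against 3.11% of all genes. In 4 members all KO tumours lay below all WT tumours, against 4.93% of all genes. Atf5, a transcription factor of this response, had 1619.7, 1317 and 1573 normalised reads against 2287, 2705 and 2084 without overlap (1.57-fold lower, log2 fold change -0.65, SE 0.14, adjusted p = 0.354, DESeq2 adjusted p = 0.00988). Ppp1r15a, which helps restore translation, had 2491, 2850.3 and 2718 against 3904, 3531 and 2984, also without overlap, and the pseudokinase gene Trib3 was at -0.51 (SE 0.21). Gdf15, a secreted stress cytokine outside the list, had 689.7, 485 and 612 against 1373, 1341 and 692, where WT3 nearly met KO1 (1.9-fold lower, log2 fold change -0.93, SE 0.24, adjusted p = 0.511). The count of 5 was 9 without KO1 and 10 without WT3, and 2 without KO2, 3 without KO3, 1 without WT1 and 2 without WT2, where the median was -0.15. Of 11 heat shock genes 2 were lower, Hspa1b at -1.12 (SE 0.34) and Dnajb1 at -0.27 (SE 0.11), with a list median of 0.01. Clock genes had a median of -0.19, and of -0.06 without KO2, -0.12 without WT2 and -0.10 without WT3. Dbp, an output gene of the clock, had 435, 271 and 469 against 824, 839 and 559.6 without overlap (log2 fold change -0.92, SE 0.22, adjusted p = 0.446, DESeq2 adjusted p = 0.0168), and no label gives the hour at which tumours were taken.

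Matrix and vessel genes differed in single members. Postn, which encodes the matrix protein periostin (chromosome 3, 54361109 to 54391037), had 655, 542 and 525 normalised reads in KO1, KO2 and KO3 and 309, 323 and 286 in WT1, WT2 and WT3. Values within each group were close and the groups far apart (1.88-fold, log2 fold change 0.91, SE 0.16, adjusted p = 0.204, DESeq2 adjusted p = 0.000959). Col1a2, a chain of collagen I, had 1575, 905 and 1061 against 444, 358 and 797, with WT3 close to KO2, Col5a2 a log2 fold change of 1.07 (SE 0.26), and Lum, a proteoglycan of collagen fibrils, one of 1.38 (SE 0.39). Col1a1, the other chain of collagen I, did not follow Col1a2. Its raw counts were 6256, 4048 and 6161 in KO1, KO2 and KO3 and 5039, 4105 and 11499 in WT1, WT2 and WT3, with overlapping groups and WT3 the highest. Fn1, which encodes fibronectin, was at -0.49 (SE 0.20). The list as a whole did not lean: 11 of 24 collagen and matrix genes were above 0 (median -0.05), with 7 higher and 1 lower at p under 0.05 before adjustment, and 3 higher without KO1, 3 without WT1 and 4 without WT2. Fibroblast genes had a median of -0.05, and both medians were 0.21 without WT3. Endothelial genes were below 0 in 14 of 16 cases (median -0.30, range -0.94 to 0.35), with 2 lower at an unadjusted p under 0.05. The median was -0.19 without KO2 and -0.17 without WT2. Pecam1, the defining marker of this list, leaned the other way with overlapping groups. Its raw counts were 652, 604 and 458 in KO1, KO2 and KO3 and 459, 468 and 580 in WT1, WT2 and WT3. Kdr, the main receptor for the vascular growth factor VEGF, had 418, 217 and 321 against 791, 690.3 and 355, and WT3 lay inside the KO range.

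**Figure D4:**
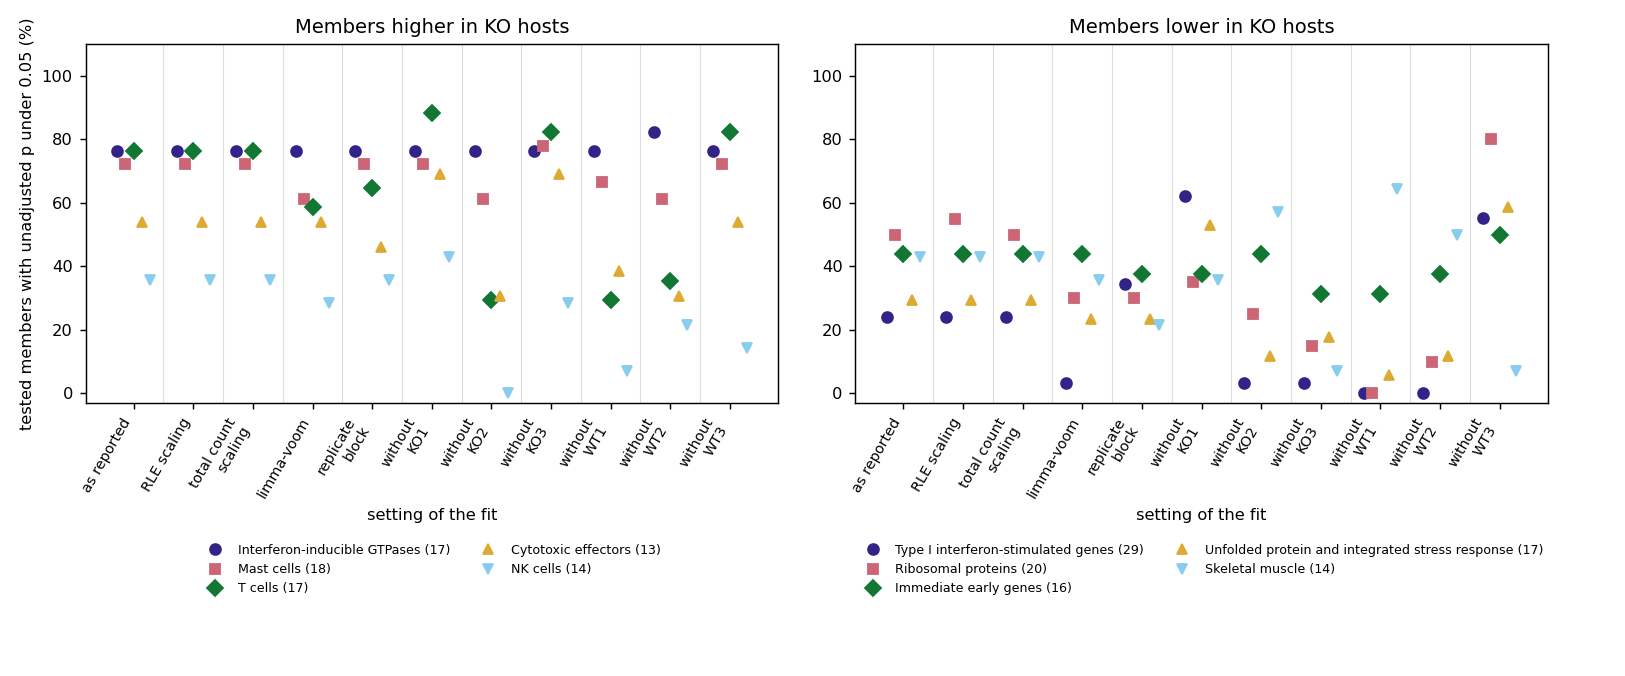
Share of tested members (vertical axes, per cent) with an unadjusted p under 0.05 under 11 settings of the fit (horizontal axes), for 5 lists counted on the higher side and 5 on the lower side. The interferon-inducible GTPases count 13 or 14 of 17 members under every setting drawn and mast cells 11 to 14 of 18, while T cells drop to 5 of 17 without KO2 or WT1 and type I interferon-stimulated genes range from 0 to 18 of 29.

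Metabolic and proliferation genes differed by little. Of 23 cell cycle genes 17 were above 0 (median 0.11) and of 20 DNA replication genes 15 (median 0.12), each with 2 higher at an unadjusted p under 0.05, among them Top2a, a topoisomerase of dividing cells, at 0.33 (SE 0.14) and Pola1, a DNA polymerase subunit, at 0.39 (SE 0.13). Hypoxia and glycolysis genes had a median of -0.14 and oxidative phosphorylation genes one of -0.13. The first was -0.25 without KO1, -0.04 without KO2 and -0.05 without WT2, the second -0.04 without WT1 and -0.23 without WT3. In fatty acid uptake and oxidation (median 0.07, 3 of 16 higher), Cd36, the fatty acid transporter and scavenger receptor, had 3125, 2248 and 1601 normalised reads in KO and 574, 893 and 1407 in WT tumours, KO3 just above WT3 (2.43-fold, log2 fold change 1.28, SE 0.30, adjusted p = 0.439). Lpl, the lipase that frees fatty acids from lipoproteins, had 6906, 6108 and 4050.3 against 2364, 2647 and 4567, and KO3 lay below WT3. Abca1, which exports cholesterol from macrophages, had 1827, 1617 and 1086 against 459, 422 and 1079, with KO3 and WT3 almost equal (log2 fold change 1.21, SE 0.32, adjusted p = 0.511). Fatty acid and triglyceride synthesis genes had a median of -0.05, and 0 of 17 had an unadjusted p under 0.05.

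Among the 10 genes of smallest p on the lower side, beside Dusp1, Atf5, Ccr7 and Dbp, 6 belonged to no list, among them Gdf15, given above with the stress genes. Arhgef37, which encodes a guanine nucleotide exchange factor, had 101, 77.7 and 79.7 normalised reads against 207, 204 and 161. Ace, the angiotensin-converting enzyme, had 644, 627 and 619 against 1066, 1962 and 895, with WT2 far above WT1 and WT3. Igfbp3, a carrier of insulin-like growth factors, had 122, 51 and 166 against 408, 283 and 249, with KO2 the lowest. Epha8, an ephrin receptor, and F10, coagulation factor X, had log2 fold changes of -0.85 (SE 0.21) and -0.80 (SE 0.20). In each of these other 5 all KO tumours lay below all WT tumours, and DESeq2 called all 5, while their adjusted p in edgeR was 0.349 to 0.446. These genes were chosen for a small p in the same tumours, so neither the lack of overlap nor the DESeq2 calls are separate support.

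**Figure D5:**
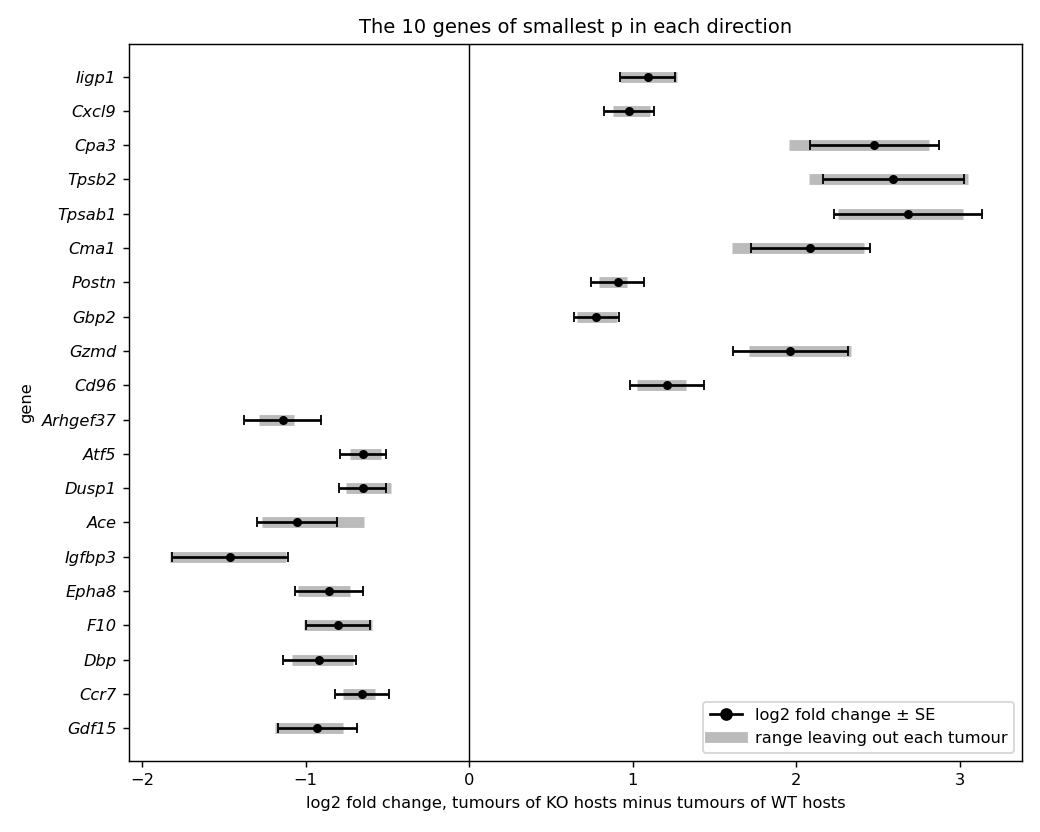
Log2 fold change (horizontal axis, KO minus WT) with its SE for the 10 genes of smallest p on each side (vertical axis), over a grey band for the range when each tumour is left out in turn. No band crosses 0, but the genes were chosen for a small p in these same tumours, so this is no separate support. The bands of Cpa3 and Tpsb2, 1.96 to 2.81 and 2.08 to 3.05, are wider than those of Cxcl9 and Postn, 0.88 to 1.11 and 0.79 to 0.97.

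The visceral fat libraries of the series gave values beside these, from another table in another unit and from mice after high-fat feeding, so the difference between tissues was not tested. Cpa3 was at 1201 to 5164 in KO fat and 146 to 669 in WT fat, and 11 of 17 mast cell genes with enough signal had all KO values above all WT values, against 21.6% of all fat genes. Cd8a was at 112 to 184 against 32.7 to 97.8. Of 17 T cell genes 4 were above without overlap, close to the 21.6% of all fat genes. Of 17 interferon-inducible GTPases 0 were above and 6 below without overlap, against 22.1% of all fat genes below. Iigp1 and Cxcl9 overlapped in fat, with 1030.3 to 4022 against 1856 to 5809 and 842.6 to 3157 against 1328 to 2993.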

How the data were processed

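Tumour values are whole read counts per gene, which the authors deposited in 1 table of 6 libraries, and fat values are a normalised signal (gene reads divided by size factors) that the authors deposited in another. Per the labels' protocols, RNA was extracted with Trizol and about 500 ng entered a TruSeq stranded mRNA kit. CASAVA, TopHat, DESeq2 and mm10 are named per the submitters' processing notes; the counter, its strand setting and the annotation are not given in the sources used here. The 5 summary lines of the tumour table, 66.7% to 72.2% of its entries, were left out, and 25 symbols had been turned into dates. No duplicate library was found.

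Counts were fitted with edgeR 4.0.16 (quasi-likelihood test, TMM scaling, filterByExpr, no block) in R 4.3.3, with Benjamini-Hochberg adjustment over 13109 genes. DESeq2 1.42.0, limma 3.58.1 (voom), other scalings and filters, a replicate block and leaving out each tumour were alternatives; leaving out tumours under DESeq2 and counting list members under each setting were chosen after seeing the data. The scripts were tested on simulated counts with 200 changed genes. At an adjusted p under 0.05, 12.15% of DESeq2 calls there were false, against 3.646% for edgeR and 4.145% for limma-voom. The simulation was a single draw with the spread typical of each read level and no tumour set apart, unlike the real libraries. Members and the 59 gene lists were chosen with earlier results of these data known. Named genes were Cd274, Cxcl9, Iigp1, Cpa3 and Cd8a; the 10 of smallest p in each direction with a mean of at least 50 normalised reads; the 3 of smallest p in each list; and the members of the mast cell, GTPase, CXCR3, T cell, cytotoxic and interleukin-33 lists with the first gene of each cell type list. Some other members are named after their values were seen. Coordinates, matched by symbol for 238 of 247 named genes, come from GENCODE on GRCm38, and promoters from RefSeq. Fat was described without tests, over genes with a value of at least 10 in 3 libraries. Some members of the lists are counted but not reported by name here.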

Additional observations from a re-analysis of the deposited data

How the results depend on the processing

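The 0 higher and 0 lower genes of edgeR stayed at 0 with other scalings, limma-voom, the replicate block and a minimum mean of 50. With every gene of at least 1 count they were 21 and 1, with DESeq2 47 and 12. Leaving out 1 tumour gave 0 to 10 higher and 0 to 11 lower in edgeR (9 higher without KO3, 10 and 11 without WT3), 260 to 824 and 239 to 845 before adjustment, and 6 to 175 and 0 to 159 in DESeq2. On leaving out each tumour, list medians had these ranges, and further ones stand beside their results: Mast cells 1.40 to 2.42, B cells -0.95 to -0.13, Neutrophils -0.83 to 0.71, Conventional dendritic cells -0.16 to 0.13, Cytotoxic effectors 0.35 to 0.84, Interferon gamma axis 0.12 to 0.41, Fibroblasts -0.12 to 0.21, Collagens and matrix -0.16 to 0.21, Skeletal muscle -1.54 to -0.70, Keratinocytes and skin -1.11 to 0.90, Schwann cells and nerve -1.18 to 0.0082, Cell cycle 0.054 to 0.13, Immediate early genes -0.33 to -0.15. Named genes whose sign turned had these ranges: Ccl5 -0.26 to 0.29, Cd4 -0.26 to 0.022, Cxcl10 -0.44 to 0.037, Cxcl11 -0.81 to 0.17, Gzma -0.43 to 0.20, Gzmc -0.27 to 0.28, Il33 -0.025 to 0.23, Krt5 -1.18 to 1.78, Mcpt8 -0.63 to 0.12, S100a8 -1.93 to 1.74, Srgn -0.080 to 0.58. S100a8 was at -0.57 with limma-voom and -0.25 with the replicate block. Deviations from the group mean correlated between same-numbered tumours at r of -0.23, 0.01 and -0.22. So few tumours cannot show whether the numbers pair them, and the labels do not say what the numbers mark. The replicate block gave 409 genes higher, 297 lower before adjustment and 0 after it. Genes with few reads, such as 8 of 15 adipocyte and 9 of 12 milk genes, could not be tested at this depth. The cause of these changes was not tested.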
